A study of Mus musculus with 14 samples.

Results

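The transcripts of 7 genes that move lactate and glucose across the retinal pigment epithelium (RPE) were followed in 14 mouse libraries: the lactate carriers Slc16a1 (MCT1), Slc16a8 (MCT3), Slc16a3 (MCT4) and Slc16a7 (MCT2), their shared partner Bsg (basigin, CD147), and the glucose carriers Slc2a1 (GLUT1) and Slc2a3 (GLUT3). The genes were taken by name, and all 7 were found among the 42687 genes of the deposited table of counts. With Clic4 lost from the RPE, libraries of the 3 sets of mice combined held more Slc16a1, Slc16a8, Bsg and Slc2a1 transcripts than control libraries. They held fewer Slc16a3 and Slc2a3 transcripts. Taken by set, all 4 rises had an adjusted p under 0.05 (edgeR) in the WT set, but only that of Slc16a1 in the CreCtrl set. Both falls had it in these 2 sets, and in the Ctrl set 0 of the 7 members did. The libraries of these mice also differed in their markers of RPE and of other cell types, and fewer cells of a type and less RNA per cell cannot be told apart in such bulk samples.

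The RPE lies between the photoreceptors and the choroid, and it passes glucose from the choroidal blood to the photoreceptors and takes up the lactate that they release. Monocarboxylate transporters carry lactate together with a proton. In the RPE, MCT1 sits in the apical membrane that faces the photoreceptors and MCT3 in the basal membrane that faces the choroid, while MCT4 is typical of cells that export lactate from glycolysis, stromal and immune cells among them. MCT1, MCT3 and MCT4 need basigin to reach the cell surface, and GLUT1 is the main glucose carrier of the RPE. GLUT3 is best known from neurons and leukocytes, and MCT2 is a high-affinity carrier of lactate and pyruvate.

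The libraries came from the RPE of both eyes of male C57BL/6J mice at 3 months of age, 1 mouse each, in 3 sets that share no library. The KO mice of every set were Best1-Cre+/-;Clic4f/f, in which Cre driven by the Best1 promoter removes Clic4, a chloride intracellular channel protein, from the RPE some days after birth, so that other cells of a sample keep the gene. The controls were 3 wild-type mice (WT) against 3 KO, 2 Clic4f/f mice without Cre (Ctrl) against 2 KO, and 2 Best1-Cre+/- mice without the floxed alleles (CreCtrl) against 2 KO. Each control genotype belongs to 1 set, and the effects of genotype and set on the controls cannot be told apart.

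Reads counted on genes summed to between 9828293 and 12363580 in the WT libraries and to between 14116835 and 32384166 in the others. Levels below are CPM, the counts as a rate over all reads counted, scaled over the 14 libraries. A gene is said to have risen, fallen or passed where its p, adjusted over all genes tested in edgeR's quasi-likelihood fit, was under 0.05. SE is the standard error of a log2 fold change, taken as its absolute value divided by the square root of the test's F statistic. Clic4 was at 62.1 to 230 CPM in the 7 control libraries and at 9.78 to 33.9 CPM in the 7 KO libraries, and in each set every KO library lay below its controls. All 10 RPE markers were at 1 CPM or more in every library. Their summed level was 15122 to 22466 CPM in WT, 46084 to 56985 CPM in Ctrl and CreCtrl and 70989 to 80957 CPM in KO libraries. The WT libraries therefore stood apart from the other controls as well as from the KO libraries. Fibroblast markers summed to 1687 to 8284 CPM in controls and 744 to 1562 CPM in KO libraries, and immediate-early genes, which respond to tissue handling, to 4894 to 15917 CPM and 333 to 2290 CPM.

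Promoter sequences are shown for the 4 members that the RefSeq table used here holds (GRCm38.p6): the apical, basal and stromal lactate carriers, which are compared below, and the main glucose carrier. Each runs 5′ to 3′ from 250 bases before the transcription start to 30 bases after it, and capitals mark matches to 5 short motifs searched on both strands: the hypoxia response element cores ACGTG and GCGTG, the OTX2 core TAATCC, and the E-boxes CACGTG and CATGTG. The windows are Slc16a1 at chr3:104638414-104638693 (plus strand), Slc16a8 at chr15:79254719-79254998 (minus), Slc16a3 at chr11:120948817-120949096 (plus) and Slc2a1 at chr4:119108495-119108774 (plus).
Slc16a1: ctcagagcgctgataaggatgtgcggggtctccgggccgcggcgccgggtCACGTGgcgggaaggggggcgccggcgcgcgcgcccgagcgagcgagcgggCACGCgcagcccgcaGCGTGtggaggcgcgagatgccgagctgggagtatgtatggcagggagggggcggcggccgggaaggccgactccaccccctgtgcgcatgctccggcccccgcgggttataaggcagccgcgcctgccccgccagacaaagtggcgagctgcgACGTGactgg
Slc16a8: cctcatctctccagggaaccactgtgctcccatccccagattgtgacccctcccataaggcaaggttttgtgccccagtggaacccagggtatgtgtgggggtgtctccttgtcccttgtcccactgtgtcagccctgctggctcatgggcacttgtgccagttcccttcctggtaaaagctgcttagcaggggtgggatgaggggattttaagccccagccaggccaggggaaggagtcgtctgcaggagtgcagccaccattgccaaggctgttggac
Slc16a3: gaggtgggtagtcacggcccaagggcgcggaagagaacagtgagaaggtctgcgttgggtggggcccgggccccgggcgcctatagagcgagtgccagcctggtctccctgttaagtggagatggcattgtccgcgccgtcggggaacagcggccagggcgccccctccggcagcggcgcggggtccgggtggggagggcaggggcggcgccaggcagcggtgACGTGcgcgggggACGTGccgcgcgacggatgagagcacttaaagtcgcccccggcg
Slc2a1: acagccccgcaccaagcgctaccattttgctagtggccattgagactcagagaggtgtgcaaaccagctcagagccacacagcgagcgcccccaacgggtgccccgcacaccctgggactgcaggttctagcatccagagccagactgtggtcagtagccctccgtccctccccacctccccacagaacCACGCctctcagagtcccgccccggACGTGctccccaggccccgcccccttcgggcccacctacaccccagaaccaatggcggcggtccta
Slc16a1 held ACGTG 3 times, GCGTG 2 times and CACGTG once, and both strands of that E-box are among the 3 ACGTG matches. Slc16a3 held ACGTG 2 times, Slc2a1 held ACGTG and GCGTG once each, and Slc16a8 held none of the 5. Among all 32851 promoters of the table, 18.5% hold ACGTG, 30.8% GCGTG, 6.77% TAATCC, 6.79% CACGTG and 13.4% CATGTG in a window of this length. A match is a run of letters and says nothing of binding.

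In the WT set, 4 of the 7 members rose in KO (Slc16a1, Slc16a8, Bsg and Slc2a1), where 16.1% of the 15428 genes tested did, and 2 fell (Slc16a3 and Slc2a3), where 19.0% did. The CreCtrl set had 1 member that rose (Slc16a1; 3.60% of 15963 genes) and 2 that fell (Slc16a3 and Slc2a3; 12.2%). In the Ctrl set, 0 members passed in edgeR, as did 0% of the 15287 genes, and 1 member, Slc2a3, was under an unadjusted p of 0.05, as were 12.1% of genes. DESeq2 called 7.27% of the genes in the Ctrl set, 0 of the members among them. Over the 3 sets in 1 fit with the set as a term, the same 4 members rose (20.1% of 16181 genes did) and the same 2 fell (18.6%). Shares of this size among all genes are the setting in which the counts of members stand. With library size alone as the scale, the genes called higher and lower went from 2490 and 2929 to 1716 and 3942 in the WT set, from 575 and 1954 to 219 and 2757 in the CreCtrl set, and from 3252 and 3003 to 1531 and 4598 over the 3 sets.

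**Figure D1:**
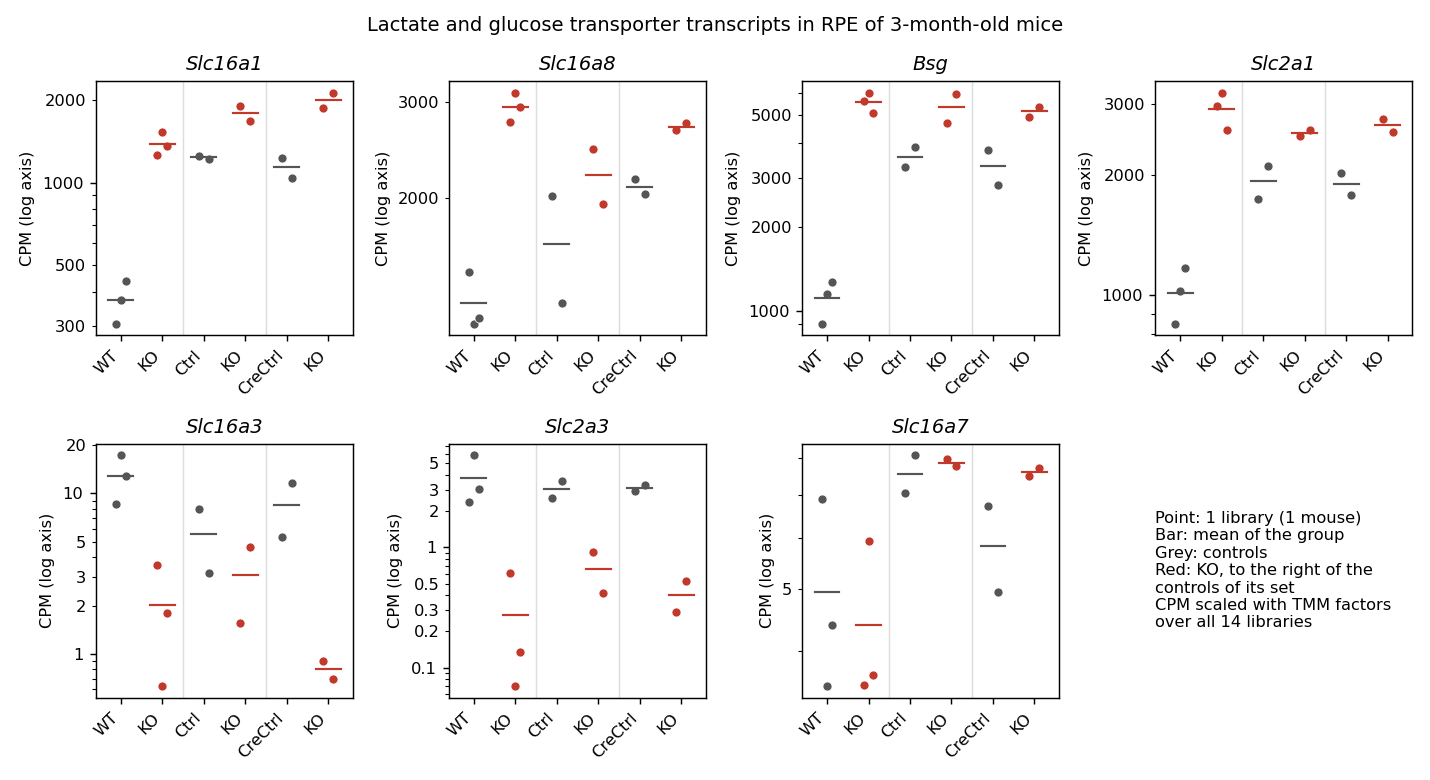
CPM of the 7 members on log axes, 1 point for each library and a bar at the group mean, with the controls of each set in grey and its KO libraries in red. Slc16a1, Bsg and Slc2a1 lie higher in KO in each set, Slc2a3 lies lower, and the WT libraries lie below the other controls for Slc16a1, Bsg and Slc2a1.

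Slc16a1 (ENSMUSG00000032902, GRCm38 chromosome 3, 104638668 to 104658462, plus strand) encodes the apical lactate carrier. It was at 306, 372 and 436 CPM in the WT libraries and at 1258, 1528 and 1368 CPM in the KO libraries of their set. The lowest KO library was thus well above the highest WT library, and the log2 fold change was 1.75 (SE 0.17, adjusted p = 0.00012, edgeR). The Ctrl libraries held 1252 and 1226 CPM and the KO libraries of their set 1909 and 1685 CPM. These groups did not overlap, yet the log2 fold change of 0.53 (SE 0.26) did not pass (adjusted p = 0.535, edgeR). For CreCtrl 1234 and 1043 CPM stood against 1876 and 2135 CPM in KO, a log2 fold change of 0.78 (SE 0.21, adjusted p = 0.0472, edgeR). That call was lost without CreCtrl replicate 2 (0.0668), without KO replicate 1 (0.121) and without KO replicate 2 (0.363). Every one of the 7 KO libraries was above all controls of its set, and the log2 fold change over the 3 sets was 1.18 (SE 0.21, adjusted p = 0.00105, edgeR).

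Slc16a8 (ENSMUSG00000032988, chromosome 15, 79251014 to 79254761, minus strand) encodes MCT3, the basal carrier, which is expressed in few tissues beside the RPE and the choroid plexus. It was at 1457, 1171 and 1200 CPM in WT and at 2753, 3125 and 2937 CPM in KO libraries of that set, with no overlap and a log2 fold change of 1.06 (SE 0.14, adjusted p = 0.000492, edgeR). The Ctrl libraries held 2011 and 1277 CPM and their KO libraries 2461 and 1944 CPM, so the lower KO library fell within the range of the controls. The CreCtrl libraries held 2161 and 2028 CPM and their KO libraries 2663 and 2746 CPM. The log2 fold changes of these sets were 0.42 (SE 0.34, adjusted p = 0.799, edgeR) and 0.33 (SE 0.20, adjusted p = 0.252, edgeR), and neither passed. With libraries left out, the first ranged from 0.12 (without Ctrl replicate 2) to 0.80 (without Ctrl replicate 1). Over the 3 sets Slc16a8 rose by 0.73 on the log2 scale (SE 0.18, adjusted p = 0.00652, edgeR), with 6 of 7 KO libraries above all controls of their set.

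Slc16a3 (ENSMUSG00000025161, chromosome 11, 120948480 to 120960868, plus strand), which encodes MCT4, was scarce in every library. It was at 8.62, 17.3 and 12.9 CPM in WT (105 to 201 counts) and at 3.60, 0.629 and 1.80 CPM in KO libraries of the set (9 to 53 counts). The groups did not overlap, and the log2 fold change was -2.82 (SE 0.64, adjusted p = 0.0094, edgeR). For CreCtrl, 5.39 and 11.6 CPM stood against 0.909 and 0.695 CPM, a log2 fold change of -3.43 (SE 0.49, adjusted p = 0.00868, edgeR). For Ctrl, 7.96 and 3.20 CPM stood against 1.57 and 4.65 CPM. There the groups overlapped, and the log2 fold change of -0.84 (SE 0.76) did not pass (adjusted p = 0.834, edgeR). It ranged from -1.83 without KO replicate 2 to -0.02 without Ctrl replicate 1. Over the 3 sets Slc16a3 fell by 2.38 on the log2 scale (SE 0.51, adjusted p = 0.00295, edgeR), with 6 of 7 KO libraries below all their controls.

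Slc16a7 (ENSMUSG00000020102, chromosome 10, 125219270 to 125389465, minus strand), which encodes MCT2, was at 3.53 to 8.06 CPM in the 7 controls (median 6.71) and at 3.54 to 7.96 CPM in the 7 KO libraries (median 7.48). The groups overlapped almost wholly. Its log2 fold changes were -0.31 (SE 0.53, adjusted p = 0.703, edgeR) in the WT set, 0.05 (SE 0.38, adjusted p = 0.986, edgeR) in the Ctrl set and 0.34 (SE 0.29, adjusted p = 0.417, edgeR) in the CreCtrl set. Over the 3 sets it was 0.04 (SE 0.23), with a sign that turned under other scalings. In the annotation, 179 bases of its exons lie opposite an exon of another gene, and whether the authors' counting used the strand is not given in the sources used here.

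Bsg (ENSMUSG00000023175, chromosome 10, 79704491 to 79711969, plus strand) encodes basigin, the partner that brings MCT1, MCT3 and MCT4 to the membrane. It was at 906, 1158 and 1277 CPM in WT and at 5611, 6035 and 5104 CPM in KO libraries of the set. Its log2 fold change of 2.18 was the largest rise among the 7 members (SE 0.17, adjusted p = 5.33e-05, edgeR). The Ctrl libraries held 3269 and 3865 CPM against 4713 and 5989 CPM in KO, and the CreCtrl libraries 3755 and 2826 CPM against 4956 and 5380 CPM. Neither pair of groups overlapped, and neither log2 fold change passed, at 0.58 (SE 0.31, adjusted p = 0.604, edgeR) and 0.62 (SE 0.24, adjusted p = 0.102, edgeR). All 7 KO libraries were above the controls of their set, and over the 3 sets Bsg rose by 1.33 on the log2 scale (SE 0.29, adjusted p = 0.00307, edgeR).

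Slc2a1 (ENSMUSG00000028645, chromosome 4, 119108711 to 119137983, plus strand), the gene of GLUT1, moved in the same direction as Bsg in CPM. It was at 850, 1026 and 1168 CPM in WT and at 2975, 3211 and 2596 CPM in KO libraries of the set, without overlap (log2 fold change 1.38, SE 0.16, adjusted p = 0.000311, edgeR). For Ctrl, 1743 and 2109 CPM stood against 2498 and 2589 CPM (0.40, SE 0.27, adjusted p = 0.734, edgeR). For CreCtrl, 2017 and 1784 CPM stood against 2755 and 2562 CPM (0.45, SE 0.20, adjusted p = 0.144, edgeR). The KO libraries were above all controls in each set, 7 of 7, and over the 3 sets Slc2a1 rose by 0.89 on the log2 scale (SE 0.20, adjusted p = 0.00357, edgeR). An antisense gene overlaps 105 bases of its exons.

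Slc2a3 (ENSMUSG00000003153, chromosome 6, 122727809 to 122801640, minus strand), the gene of GLUT3, was close to the limit of detection in KO libraries. It had 29 to 68 counts in WT (2.38, 5.85 and 3.08 CPM) and 9, 1 and 2 counts in KO libraries of the set (0.612, 0.0699 and 0.134 CPM). In this set the log2 fold change was -3.89 (SE 1.11, adjusted p = 0.0251, edgeR), and the call was lost without WT replicate 2 (0.0964), WT replicate 3 (0.0575), KO replicate 2 (0.0636) or KO replicate 3 (0.072). For Ctrl, 2.57 and 3.57 CPM stood against 0.913 and 0.418 CPM, a log2 fold change of -2.20 (SE 0.73, adjusted p = 0.285, edgeR). For CreCtrl, 2.95 and 3.30 CPM stood against 0.289 and 0.521 CPM, a log2 fold change of -2.95 (SE 0.54, adjusted p = 0.0166, edgeR). All 7 KO libraries lay below the controls of their set, and over the 3 sets Slc2a3 fell by 3.06 on the log2 scale (SE 0.52, adjusted p = 0.000835, edgeR).

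**Figure D2:**
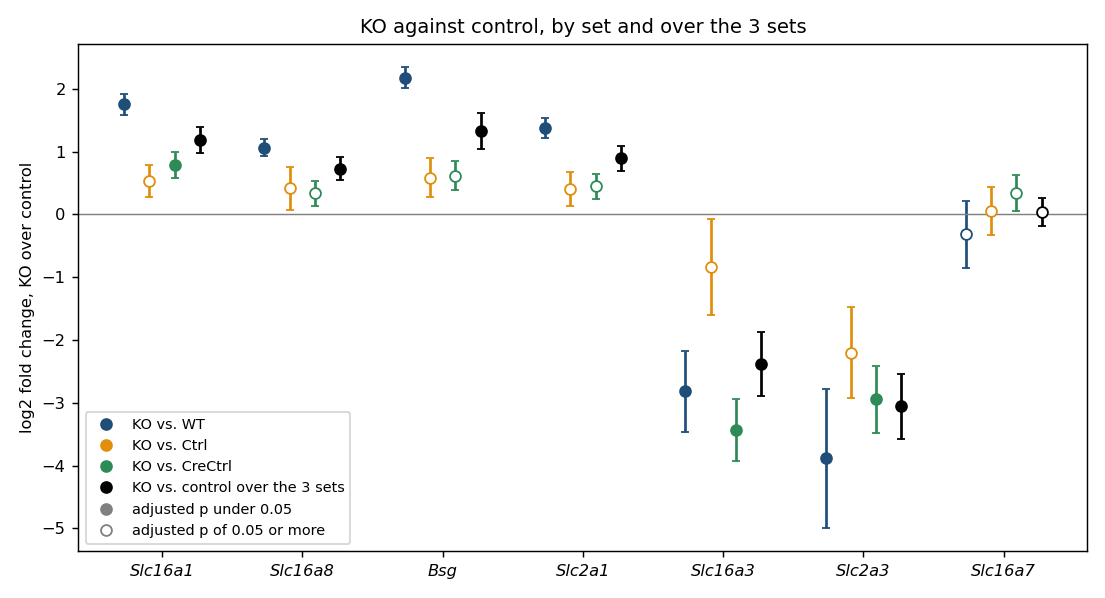
Log2 fold change of KO over control for each member (points) with its standard error derived from edgeR's F statistic (bars), by set and over the 3 sets, with filled points for an adjusted p under 0.05. Slc16a1, Slc16a8, Bsg and Slc2a1 are above 0 and Slc16a3 and Slc2a3 below 0 in each set, and the changes of the WT set lie farthest from 0 for Slc16a1, Slc16a8, Bsg and Slc2a1.

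Slc16a3 and Slc2a3 were lower in libraries that also held lower levels of fibroblast, endothelial, pericyte and smooth muscle markers and, in the WT and CreCtrl sets, of myeloid markers. Of 10 fibroblast markers, 9 fell in the WT set and 8 in the CreCtrl set, and of 10 endothelial markers 8 and 9 did (5 in the WT set without KO replicate 2). Of 11 myeloid markers, 10 fell and 1 rose in the WT set (median log2 fold change -3.69). In the CreCtrl set 9 fell and 0 rose (median -2.79). Their summed level weighs markers by their CPM and fell by less than these medians. It was 1862 to 3094 CPM in WT, 956 to 1311 CPM in CreCtrl and 784 to 1022 CPM in KO libraries of these sets. In the Ctrl set, in which the groups overlapped for Slc16a3, the myeloid markers summed to 1008 to 1564 CPM in Ctrl and to 885 to 2859 CPM in KO libraries. There 9 of the 11 had a log2 fold change above 0 (median 0.25), while Slc2a3, at -2.20, lay below both Ctrl libraries. Pericyte and smooth muscle markers summed to 456 to 2335 CPM in controls and to 226 to 397 CPM in KO libraries, and endothelial markers to 138 to 785 CPM and 35.2 to 161 CPM. None of these lists had a gene at 0 in all 14 libraries, and their part in the lower Slc16a3 and Slc2a3 was not tested. Rod markers did not move in 1 direction. All 10 had a log2 fold change above 0 in the WT set, where 1 rose, and in the Ctrl set, where 0 passed, and 9 of 10 fell in the CreCtrl set. They summed to 60.2 to 1504 CPM in WT and 412 to 2187 CPM in KO of that set, to 553 to 2123 CPM in Ctrl and 2049 to 2157 CPM in KO, and to 1214 to 4917 CPM in CreCtrl and 569 to 647 CPM in KO. In the WT set 1 of 6 Muller glia markers rose and 1 fell, and of 6 markers of melanocytes and Schwann cells 2 rose and 1 fell. Among all genes tested in that set 16.1% rose and 19.0% fell.

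The size of the KO difference was compared between sets in 1 fit of all 14 libraries. Between the WT and Ctrl sets it differed for 3 of 7 members, where 5.15% of 17662 genes did. The KO difference was larger in the WT set by 1.36 on the log2 scale for Slc16a1 (SE 0.26, adjusted p = 0.0151, edgeR), by 1.74 for Bsg (SE 0.31, adjusted p = 0.0117, edgeR) and by 1.13 for Slc2a1 (SE 0.26, adjusted p = 0.0305, edgeR). Between the WT and CreCtrl sets it differed for 1 of 7, where 1.49% of genes did, and that member was Bsg at 1.67 (SE 0.31, adjusted p = 0.0247, edgeR). Slc16a1 (1.08, adjusted p = 0.0578, edgeR) and Slc2a1 (1.04, adjusted p = 0.0669, edgeR) did not pass there. Each of these 4 calls was lost when some 1 library was left out: Slc16a1 without Ctrl replicate 2 (0.0594) or KO replicate 2 of the Ctrl set (0.0762), and Bsg against the Ctrl set without Ctrl replicate 2 (0.0504). The call of Slc2a1 was lost in 6 of 14 cases (adjusted p of up to 0.156, without Ctrl replicate 2; also without WT replicate 2, KO replicates 1 and 2 of the WT set, or KO replicates 1 and 2 of the Ctrl set). That of Bsg against the CreCtrl set was also lost in 6 (up to 0.171, without CreCtrl replicate 1; also without WT replicate 2, KO replicates 2 and 3 of the WT set, or KO replicates 1 and 2 of the CreCtrl set). Between the Ctrl and CreCtrl sets 0 members passed in edgeR (0% of genes). Only Slc16a3 was under an unadjusted p of 0.05, as were 8.75% of genes, with a difference of 2.56 (SE 1.10, adjusted p = 0.556, edgeR). The genes called higher and lower went from 766 and 143 to 439 and 157 with RLE normalization for the WT and Ctrl sets, and from 198 and 66 to 156 and 87 for the WT and CreCtrl sets. The WT libraries, with 906 to 1277 CPM of Bsg against 2826 to 3865 CPM in the other controls, are also those with the lowest summed RPE markers, and the part of that in these differences was not tested.

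The apical, basal and stromal lactate carriers were then compared with each other within each library, as ratios of counts per kb of exon, which do not depend on the scaling between libraries. Slc16a8 outnumbered Slc16a1 in all groups. The ratio of Slc16a8 to Slc16a1 was 6.72 in WT and 4.14 in KO of the same set (geometric means), and 3.59 in CreCtrl and 2.63 in KO, with no overlap in either set. In the Ctrl set it was 2.51 and 2.37, and the libraries overlapped. On the log2 scale the mean KO minus control difference over the 3 sets was -0.41 (p = 0.0194 in a two-sided exact permutation test of the labels within sets, 0.0194 after adjustment over the 3 ratios). The exact permutation p was 0.0694 without Ctrl replicate 1 and 0.0583 without KO replicate 2 of the Ctrl set. So with the 3 sets combined both carriers rose, and the apical one rose by more. By itself Slc16a8 did not pass in the Ctrl or CreCtrl set, and the ratio differed by only -0.08 on the log2 scale in the Ctrl set.

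**Figure D3:**
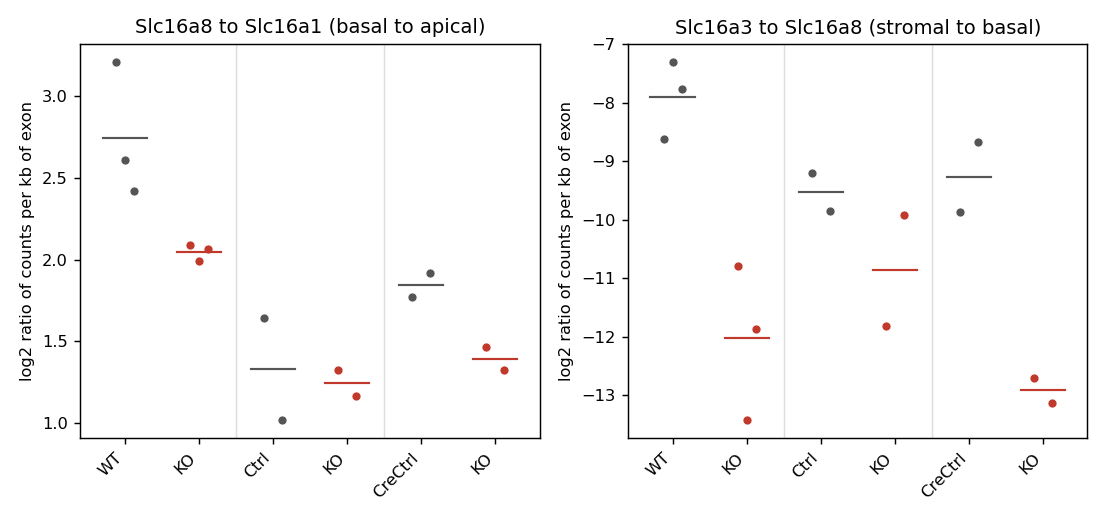
Log2 ratios within each library of Slc16a8 to Slc16a1 (left) and of Slc16a3 to Slc16a8 (right), from counts per kb of exon with 0.5 added to each count, with 1 point for each library and a bar at the group mean. Both ratios are lower in the KO libraries of the WT and CreCtrl sets without overlap, and the left one overlaps in the Ctrl set.

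MCT4 transcripts were a small part of the lactate carriers. The ratio of Slc16a3 to Slc16a8 was 0.0042 in WT and 0.00024 in KO of that set, and it did not overlap in any of the 3 sets. The mean difference on the log2 scale was -3.04 (exact permutation p = 0.00278, the smallest this design allows, 0.00833 after adjustment). The ratio of Slc16a3 to Slc16a1 differed by -3.45 (exact permutation p = 0.00556, 0.00833 after adjustment), with overlap in the Ctrl set. The smallest p of such a test within a single set is 0.1 in the WT set and 0.333 in the other sets.

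Levels of different genes were compared per kb of exon, in CPM per kb. Bsg led in every group, followed by Slc16a8, Slc2a1 and Slc16a1, while the other 3 members were at most 2.43 on average. In WT libraries Bsg was at 614 and Slc16a8 at 561, and their libraries overlapped. Slc2a1 followed at 289 and Slc16a1 at 83.9, each apart from its neighbour. Slc16a3 at 2.43 was above Slc2a3 at 0.521 and Slc16a7 at 0.417, which overlapped. In KO libraries of that set Bsg was at 3078, Slc16a8 at 1291, Slc2a1 at 835 and Slc16a1 at 313, and none of these neighbours overlapped. Among the controls, Slc16a8 and Slc2a1 overlapped in Ctrl (722 and 549) and not in CreCtrl (920 and 542). Slc2a3 was the lowest member in all 3 KO groups, at 0.0375 to 0.0918.

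Since the RPE markers were also higher in KO, the 4 members that rose were set against the geometric mean of the 10 markers in the same library. This measure was added after the values were seen and is a description. Of the markers, 9 rose in the WT set, with a median log2 fold change of 1.72 over the list, and Best1 did not (-1.82, adjusted p = 0.0616, edgeR). In the Ctrl set 0 of the 10 passed (median 0.54), and in the CreCtrl set 1 rose (median 0.60). Over the 3 sets 9 rose and 1 fell. Slc16a8 was lower against the markers in all 3 KO libraries of the WT set, with a mean log2 difference of -0.46, or -0.83 with Best1 left out of the markers. In the Ctrl and CreCtrl sets the differences of Slc16a8 were -0.09 and -0.13, with overlap. Without Best1 they were -0.14, with overlap, and -0.30, with both KO libraries below the CreCtrl libraries. Bsg was higher against the markers in all 3 KO libraries of the WT set, by 0.67 with the 10 markers and by 0.30 without Best1. In the other sets its differences were 0.04 and 0.17, and -0.01 and 0.00 without Best1. Slc16a1 differed by 0.24 in the WT set with the 10 markers and by -0.13 without Best1, so its direction there depends on 1 marker. For Ctrl its difference was -0.01, and -0.05 without Best1. For CreCtrl it was 0.32, and 0.15 without Best1, with both KO libraries above the controls each time. Slc2a1 differed by -0.13, -0.14 and -0.01 in the WT, Ctrl and CreCtrl sets, and by -0.50, -0.18 and -0.18 without Best1. For Slc2a1 the KO libraries lay below all controls in the Ctrl set each time, and in the WT set only without Best1. Against the same 10 markers the differences of Slc16a3 were -4.59, -1.43 and -3.78 in these sets and those of Slc2a3 -5.65, -2.77 and -3.44. Slc16a7, whose CPM overlapped between KO and control, was also lower against the markers, with no overlap in any set. Its differences were -1.82, -0.48 and -0.10 in the WT, Ctrl and CreCtrl sets. Without Best1 they were -2.19, -0.53 and -0.28, again with no overlap. A gene of level CPM must lie lower against markers that rose, so these differences give no separate result for Slc16a7. By itself its log2 fold change was -0.31, 0.05 and 0.34 in the 3 sets and did not pass. In the CreCtrl set both KO libraries were above the controls in CPM.

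**Figure D4:**
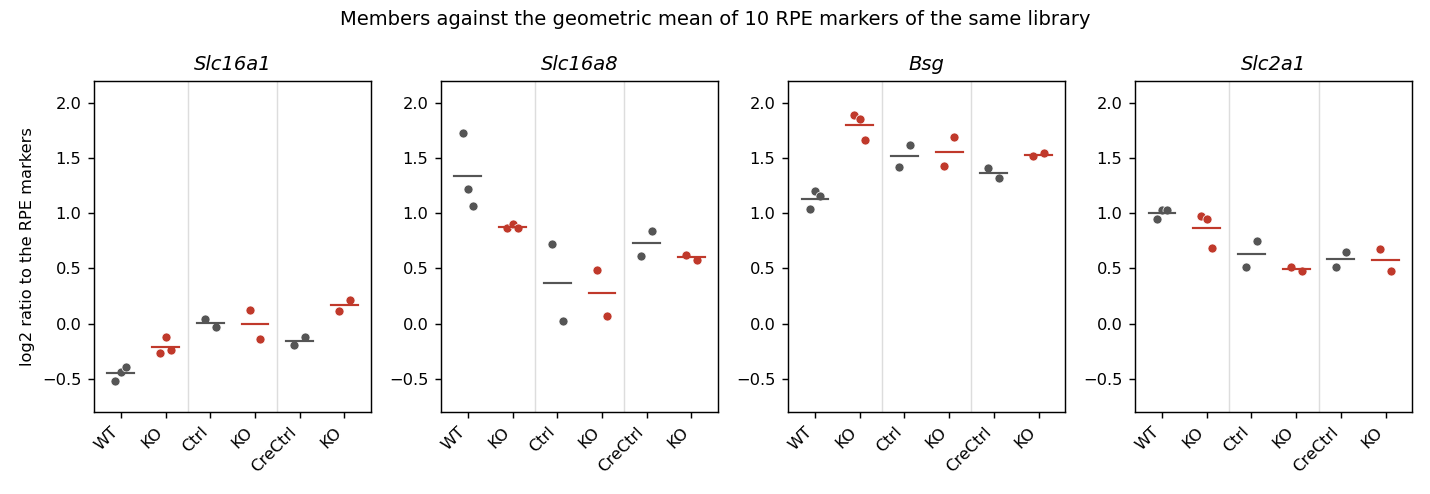
Log2 ratio of 4 members to the geometric mean of 10 RPE markers in the same library, with 1 point for each library and a bar at the group mean. In the WT set the KO libraries lie below the WT libraries for Slc16a8 and above them for Bsg, and the gaps in the other 2 sets are at most 0.32 in size.

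Other genes of lactate and glucose handling were taken from lists. The list counts below stand against the shares over all genes tested. In the WT set 16.1% of genes rose and 19.0% fell, and in the CreCtrl set 3.60% rose and 12.2% fell. Of 7 other monocarboxylate transporters tested in the WT set, 3 rose and 0 fell (median log2 fold change 0.30, against -0.08 over all genes). They were Slc16a9, a carnitine transporter (1.55, adjusted p = 7.85e-05, edgeR), Slc16a4 (1.60, adjusted p = 0.0121, edgeR) and Slc16a6 (0.99, adjusted p = 0.00179, edgeR). Against CreCtrl, 2 of 8 rose, Slc16a9 (0.86) and Slc16a14 (3.64), and 0 to 3 were called with libraries left out (0 without CreCtrl replicate 2 or KO replicate 2, 3 without CreCtrl replicate 1). The value of Slc16a14 against CreCtrl had an SE of 0.96 (adjusted p = 0.0455, edgeR), and the gene was not tested in the WT set. It was at -0.31 in the Ctrl set (adjusted p = 0.974, edgeR) and at -0.87 over the 3 sets (adjusted p = 0.698, edgeR). Of 9 other glucose and sugar transporters in the WT set, 2 rose and 3 fell (median -0.37). GLUT12 (Slc2a12, 1.48) and the insulin-responsive GLUT4 (Slc2a4, 0.97) rose, and the myo-inositol carrier Slc2a13 (-4.05), Slc2a6 (-3.41) and Slc2a10 (-1.56) fell. The number called in this list was 3, in place of 5, without WT replicate 2.

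All 4 tested partners and regulators of these carriers fell in the WT set (median -2.25). Txnip, which promotes the removal of GLUT1 from the cell surface, had a log2 fold change of -3.51 (SE 0.26, adjusted p = 4.84e-05, edgeR), and its relative Arrdc4 -1.31 (adjusted p = 0.00518, edgeR). Emb (embigin), the partner preferred by MCT2, had -3.18 (adjusted p = 0.000259, edgeR), and Nptn (neuroplastin) -0.33 (adjusted p = 0.0436, edgeR), a call lost without any 1 of the 6 libraries (0.0738 to 0.314). Against CreCtrl, 3 of 4 fell, Txnip (-2.14), Emb (-1.71) and Arrdc4 (-1.40), and Nptn was at 0.30 (adjusted p = 0.24, edgeR). So Emb fell where Bsg, its relative, rose in the WT set.

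Of 19 genes from glycolysis to lactate, 14 rose and 2 fell in the WT set (median 0.88). Eno1, an enolase (2.1, adjusted p = 3.33e-05, edgeR), and Ldhb, the subunit of lactate dehydrogenase found in lactate-using tissues (1.97, adjusted p = 5.33e-05, edgeR), led the rise. Ldha, the subunit typical of lactate producers, was at 0.08 (adjusted p = 0.748, edgeR) and was looked up after the values were seen. Pfkfb3, which makes an activator of phosphofructokinase, fell by 3.15 on the log2 scale (adjusted p = 0.00173, edgeR), and Eno2, the neuronal enolase, fell by 0.64 (adjusted p = 0.00906, edgeR). Against CreCtrl, 2 rose, Eno1 (0.85) and Tpi1 (0.85), and 2 fell, Pfkfb3 (-3.10) and Hk2 (-2.35). That count of 4 was 12 without CreCtrl replicate 1, and 2 without CreCtrl replicate 2 or KO replicate 2. Of 11 genes for pyruvate entry into mitochondria, 6 rose and 2 fell in the WT set (median 0.65). The pyruvate carrier subunit Mpc1 (1.11) and Dld (0.92), a subunit of the pyruvate dehydrogenase complex, were among those that rose, and the complex's Pdha1 (-0.60) and its phosphatase Pdp1 (-2.03) fell. Against CreCtrl, Dlat (0.69) and Pdk3 (0.71) rose and 0 fell. Of this list 6 genes were called without CreCtrl replicate 1, 3 without KO replicate 1, and 0 without CreCtrl replicate 2 or KO replicate 2.

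Of 12 genes of the hypoxia response, 4 rose and 3 fell in the WT set (median -0.25), where 16.1% and 19.0% of all genes did. The transcription factors Epas1 (1.14, adjusted p = 0.0019, edgeR) and Hif1a (0.95) rose with the oxygen sensor Egln1 (1.02) and mitochondrial Higd1a (1.06). Ndrg1 (-2.80, adjusted p = 0.000329, edgeR), Egln3 (-1.96) and P4ha1 (-0.58) fell. Against CreCtrl, 0 rose and 4 fell, Ndrg1 (-0.95), Egln3 (-2.08), Adm (-2.65) and Kdm3a (-0.75). The number called was 7 without CreCtrl replicate 1, 2 without KO replicate 1 and 1 without KO replicate 2. In the Ctrl set 0 genes of these 6 lists passed in edgeR, and DESeq2 called 3 of the hypoxia response, 3 partners and regulators, 2 sugar transporters and 2 of glycolysis. Without Ctrl replicate 1, edgeR called 3 of the hypoxia response, 2 sugar transporters and 1 partner, and without Ctrl replicate 2 it called 1 of the hypoxia response. The lists changed in libraries whose RPE, fibroblast and immediate-early markers changed too, at the levels given above, and the part of these was not tested.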

How the data were processed

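RNA from the RPE of 14 mice had been made into stranded poly(A) libraries, and the authors aligned paired-end reads to GRCm38 with STAR 2.5.2. The deposited values are raw read counts per Ensembl gene. Processing notes also name bcl2fastq 2.19, Cufflinks 2.1.1 and HTSeq 0.11.2. The counting step, its strand setting and the annotation release are not given in the sources used here. GENCODE M21 gave names and positions for 42329 of the 42687 genes. Sample titles, by how they are written, show to which set a KO library belongs.

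KO libraries were compared with controls of their set on the counts by edgeR 4.0.16 (R 4.3.3; quasi-likelihood test, TMM, filterByExpr, Benjamini-Hochberg adjustment over all genes tested, threshold 0.05). DESeq2 1.42.0, RLE normalization, library size alone, other filters, a replicate block and each library left out were alternatives. Fits were tested on simulated counts. Ratios used 0.5 added to each count and exact permutation of labels within sets. CPM used TMM factors over the 14 libraries. Replicates differed by more than sampling noise.

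The members, lists and tests were chosen with earlier results of these data known. The text names all 7 members and, from each pathway list, up to 4 genes with the largest and smallest log2 fold changes among those called in the WT set. Other genes of these lists (Slc16a14, Slc2a10, Hk2, Tpi1, Ldha, Dlat, Pdk3, Hif1a, Egln1, P4ha1, Adm and Kdm3a) were named after their values were seen. Of 3 members, no promoter was in the table used. The values of 1 gene of the pathway lists are not reported here, and it was left out of the counts of its list.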

Additional observations from a re-analysis of the deposited data

Results flagged for a closer look

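For 3 members the KO difference was larger in the WT set than in another set, by a test of the difference itself in 1 edgeR fit of the 14 libraries. Bsg differed by 1.74 on the log2 scale between the WT and Ctrl sets and by 1.67 between the WT and CreCtrl sets. Slc16a1 differed by 1.36 and Slc2a1 by 1.13 between the WT and Ctrl sets. The KO libraries of the 3 sets had similar levels of Bsg, at 4713 to 6035 CPM, while the controls ranged from 906 to 3865 CPM. Control genotype and set cannot be told apart. Among the 7 KO libraries, 0 of the 7 members had a library that stood apart from the others by Dixon's test.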

How the results depend on the processing

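Direction held for 6 of the 7 members in every set and over the 3 sets under all alternatives that gave a value. For Slc16a7, which passed in no fit, the log2 fold change turned to -0.057 in the Ctrl set with library size alone (-0.025 to 0.15 with libraries left out). Over the 3 sets it was -0.014 with DESeq2, -0.021 with RLE normalization, -0.22 with library size alone, -0.059 with at least 10 counts in every library, and -0.036 to 0.18 with libraries left out. In the CreCtrl set 5 members were called with DESeq2 and 2 to 5 with libraries left out, and 5 without CreCtrl replicate 1, when Bsg and Slc2a1 passed. Between the WT and CreCtrl sets 4 members differed with DESeq2, 3 with every gene of at least 1 count, 3 with at least 10 counts in every library, and 0 to 2 with libraries left out. Between the WT and Ctrl sets 0 to 3 differed with libraries left out, 0 of them without Ctrl replicate 2. Over all genes, the WT and CreCtrl sets differed for 264 of 17662 in the main fit and for 901 of 17662 with DESeq2. They differed for 1102 of 27272 with every gene of at least 1 count and for 487 of 11824 with at least 10 counts in every library. The difference in the ratio of Slc16a8 to Slc16a1 was -0.52 to -0.31 with libraries left out. Slc16a3 and Slc2a3 were not tested in the WT set with at least 10 counts in every library. In the CreCtrl set the adjusted p was 0.0586 for Slc16a1 with library size alone and 0.0946 for Slc2a3 in the fit of all 14 libraries. Between the WT and Ctrl sets that of Slc2a1 was 0.0568 with RLE normalization and 0.0698 with library size alone. The number of genes called of all tested ranged from 0 to 1658 in the Ctrl set, from 704 to 5157 in the CreCtrl set (2529 as reported, 4096 with DESeq2), from 100 to 2262 between the WT and Ctrl sets (909), from 0 to 1102 between the WT and CreCtrl sets (264) and from 0 to 883 between the Ctrl and CreCtrl sets (0). The causes were not tested. Over all genes, the median moved with library size alone from -0.08 to -0.32 for WT, from 0.01 to -0.11 for Ctrl, from -0.02 to -0.24 for CreCtrl and from -0.01 to -0.27 over the 3 sets, on the log2 scale. Among other genes named, calls against WT were lost without 1 library for Egln3 (adjusted p of up to 0.0748, without WT replicate 1 or 2 or KO replicate 1), Pdha1 (up to 0.107, without WT replicate 2 or 3 or KO replicate 2 or 3), Slc2a4 (up to 0.0743, without WT replicate 1 or 2) and Slc2a6 (0.114, without WT replicate 2).

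Whether same-numbered samples were paired is not given in the sources used here. Their deviations correlated at -0.02, 0.04 and 0.13 in the WT set, at 0.00 for Ctrl and 0.13 for CreCtrl. Not every WT-set sample correlated best with its own number. With 2 libraries in each Ctrl and CreCtrl group, the other pairing gives the same value with the opposite sign, so these correlations cannot settle it. With the replicate block, 5 members passed in the WT set (without Slc2a3), 2 in the CreCtrl set (without Slc16a1), 6 over the 3 sets, 2 between the WT and Ctrl sets (without Slc2a1) and 0 between the WT and CreCtrl sets (without Bsg, 1.67). Of all genes tested with this block, 4857 of 15428 passed in the WT set, 3824 of 15963 in the CreCtrl set and 5321 of 17662 over the 3 sets. Between the WT and Ctrl sets 445 of 17662 did, and between the WT and CreCtrl sets 34 of 17662.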

Other observations

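Genes were ranked by how closely their log2 CPM followed each member over the 14 libraries, with each set centred on its own mean, among 17662 genes. The values are descriptions over libraries that share the KO and control difference and the scaling, and no test was made. Closest to Slc16a1 were Kyat3, Gclm, which supports glutathione synthesis, and Taldo1, an enzyme of the pentose phosphate pathway, with r of 0.994 to 0.996. Closest to Bsg were Ndufb3, a subunit of respiratory complex I, Cspg5 and the glycolytic aldolase Aldoa (0.994 to 0.996). Bsg was itself second closest to Slc2a1 (0.992), between Tmem98 (0.994) and Aldoa (0.991). Slc16a8 was followed by Bst2, Klc4 and Ndufs5 (0.980 to 0.981). The genes nearest to Slc16a3 were Parp3, Clec2d and Bin2, of which Bin2 and Clec2d are known from leukocytes (0.978 to 0.986). Slc2a3 was followed by Ebf3, Dpt, which encodes the extracellular matrix protein dermatopontin and is on the fibroblast list, and Nalcn (0.979 to 0.980). For Slc16a7 the nearest genes, Gm20421, Zfp994 and Sfxn1, reached no more than 0.843.

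The controls themselves differed in these genes. Slc16a1 was at 306 to 436 CPM in WT and at 1043 to 1252 CPM in the other 4 control libraries. Slc2a1 was at 850 to 1168 CPM in WT and at 1743 to 2109 CPM in the others, and Slc16a3 at 8.62 to 17.3 CPM and 3.20 to 11.6 CPM. Slc16a8 overlapped, at 1171 to 1457 CPM in WT and 1277 to 2161 CPM in the others.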
